A study of Mus musculus with 2 samples.

Results

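The histone cluster genes of the mouse encode the core histones H2A, H2B, H3 and H4 and the linker histone H1, mostly from dense gene clusters. Every gene whose symbol starts with Hist1h, Hist2h, Hist3h or Hist4h was taken if it had 20 or more unique molecular identifiers over both libraries; a unique molecular identifier (UMI) counts 1 captured RNA molecule. Of 67 such symbols 63 met this, among 22023 genes listed for both libraries. Just inside the limit stood Hist1h4m with 20 UMIs and Hist1h1t and Hist2h2bb with 22 UMIs each. Just outside stood Hist2h2aa2 with 10 UMIs, Hist1h2ba with 2, Hist1h2aa with 1 and Hist1h2bq with 0.

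Single cells were captured from dissociated mouse pancreas at E15.5, with 1 library per genotype. Mettl3pKO embryos lack Mettl3, the RNA m6A methyltransferase, in Pdx1+ pancreatic progenitors, and WT embryos carry it. The deletion therefore concerns the pancreatic epithelium, whereas mesenchyme, mesothelium, blood and immune cells do not descend from those progenitors. The labels name neither the Cre allele nor the number of embryos per library. No difference below has a replicate check, so none is tested: levels are in CPM, the UMIs of a gene scaled to a common total of UMIs per class, and the values in parentheses are a ratio with its exact 95% interval, which covers counting error only and not the spread between embryos.

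Most histone messages are replication-dependent: they are made in S phase and end in a conserved stem-loop, bound by the stem-loop binding protein Slbp, in place of a poly(A) tail. A smaller group of cluster genes also yields polyadenylated messages and stays expressed in cells that have left the cycle. The capture beads bind RNA by its poly(A) tail, so these levels are not those of the whole histone message pool. From textbook knowledge the members were sorted into 51 cycling-dependent genes, 7 of the polyadenylated type (Hist1h2bc, Hist1h1c, Hist3h2ba, Hist3h2a, Hist2h2be, Hist4h4 and Hist2h2aa1) and 5 of unsure type (Hist1h4i, Hist1h4h, Hist1h2be, Hist2h2bb and Hist1h1t).

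Message ends were read from the longest coding transcript of each gene in GENCODE vM21 (GRCm38), which matched 63 of 63 members. The stem-loop has 6 paired bases on each side of a loop of 4 bases. Its commonest perfect form, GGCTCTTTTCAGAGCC, stood in 24 members, among them H1, H2A, H2B and H3 genes, and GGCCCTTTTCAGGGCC stood in 7 H4 genes. The ends below are shown because they set messages that stop near the stem-loop beside messages that run past it; capitals mark the paired arms.
Hist1h1c, H1, chr13:23739507-23739532, plus strand: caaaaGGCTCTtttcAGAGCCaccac
Hist3h2ba, H2B, chr11:58949344-58949369, plus strand: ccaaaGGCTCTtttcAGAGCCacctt
Hist1h2ae, H2A, chr13:23570663-23570688, minus strand: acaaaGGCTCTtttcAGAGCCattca
Hist1h4d, H4, chr13:23581945-23581970, plus strand: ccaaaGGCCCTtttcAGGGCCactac
Hist1h3c, H3, chr13:23745042-23745067, minus strand: aaaaaGGCTCTtttaAGAGCCaccta
Hist1h2ab, H2A, chr13:23751567-23751592, plus strand: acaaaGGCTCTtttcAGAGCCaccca
The annotated transcript runs on after the stem-loop for 840 bases in Hist1h1c, 169 in Hist3h2ba, 151 in Hist1h2ae, 770 in Hist1h4d, 74 in Hist1h3c and 11 in Hist1h2ab. In Hist1h1c, Hist3h2ba and Hist1h2ae the polyadenylation signal AATAAA starts 26, 27 and 28 bases before the end; the other transcripts shown have none in their last 40 bases. Hist1h2ae and Hist1h2ab thus share the same arms but differ in the annotated end. Hist1h2bc has 2 exons (chr13:23684199-23692908, plus strand), a 3′ untranslated region of 742 bases and no perfect stem-loop. It has no polyadenylation signal in its last 40 bases either. Hist2h2aa1, also sorted to the polyadenylated type, ends 35 bases after its stem-loop without such a signal. The annotated ends thus do not bear out the type of every member.

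RefSeq promoters (GRCm38.p6, 250 bases before to 50 after the start) matched 57 members. The 250 bases before the start are shown for a pair of H1 genes of different type that are compared below. Capitals mark 4 motifs searched on both strands, which are the TATA box TATAAA, the CCAAT box, the octamer ATTTGCAT and the H1 box AAACACA; no marked motif overlaps another in these stretches.
Hist1h1c (RefSeq symbol H1f2), chr13:23738557-23738806, plus strand: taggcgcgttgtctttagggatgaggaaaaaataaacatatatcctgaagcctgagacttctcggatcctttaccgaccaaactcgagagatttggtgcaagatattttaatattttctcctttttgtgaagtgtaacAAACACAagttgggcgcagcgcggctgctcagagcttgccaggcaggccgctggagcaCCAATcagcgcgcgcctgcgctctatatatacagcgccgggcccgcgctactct
Hist1h1b (RefSeq symbol H1f5), chr13:21780626-21780875, minus strand: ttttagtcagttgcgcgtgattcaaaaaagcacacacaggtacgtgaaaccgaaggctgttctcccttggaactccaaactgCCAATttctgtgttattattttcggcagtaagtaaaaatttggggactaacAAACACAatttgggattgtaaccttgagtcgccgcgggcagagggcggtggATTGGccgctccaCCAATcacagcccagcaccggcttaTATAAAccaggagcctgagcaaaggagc
CCAAT was in 48 of 57 member promoters (84.2%), against 37.4% of 32851 promoters: in 6 of 6 H1, 15 of 15 H2A, 14 of 14 H2B and 10 of 10 H3 genes, and in 3 of 12 H4 genes. TATAAA was in 33 (57.9% against 13.6%), including Hist1h1b but not the stretch of Hist1h1c. The octamer was in 11 (19.3% against 1.74%), 6 of them H2A and 5 H2B genes, some of which share 1 stretch between divergent starts. The H1 box was in 5 of 6 H1 genes and 7 members in all (12.3% against 7.18%).

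After dropping 1 incomplete cell each, the libraries held 3624 Mettl3pKO and 6384 WT cells, with 65779771 and 80011421 UMIs and medians of 16481 and 10824 per cell. Clusters, built without histone genes, were named from marker genes, and 8 classes had 30 or more cells in each library. The libraries share 33 cell labels. Mettl3 had 8.23 CPM in Mettl3pKO and 13.0 in WT (0.633, 0.561 to 0.714) in epithelial cells as a whole, 7.30 in Mettl3pKO and 9.34 in WT (0.782, 0.659 to 0.929) in acinar-like and 11.7 in Mettl3pKO and 17.2 in WT (0.681, 0.525 to 0.875) in duct and trunk-like cells. Outside the targeted epithelium it had 13.1 in Mettl3pKO and 16.2 in WT (0.805, 0.584 to 1.09) in mesenchyme-like and 7.88 in Mettl3pKO and 22.7 in WT (0.347, 0.140 to 0.754) in erythroid-like cells, the lowest ratio of the 8 classes. Mesothelium-like cells had 20.7 in Mettl3pKO and 14.0 in WT (1.48, 0.845 to 2.59). The deleted exons are not named in the labels, and UMIs from elsewhere in the gene check nothing.

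Member UMIs lay in few genes. Hist1h2bc had 25665 of 64330 member UMIs (39.9%), and the 7 polyadenylated-type members held 68.6%, the 51 cycling-dependent ones 27.4% and the unsure ones 3.97%. Per kilobase of transcript, Hist1h2bc had 7213 in Mettl3pKO and 14989 in WT, in UMIs, and Hist1h1c 2361 in Mettl3pKO and 6207 in WT. Hist3h2ba had 1305 in Mettl3pKO and 3121 in WT, and Hist1h2ae, the cycling-dependent member with the most UMIs, 2339 in Mettl3pKO and 1980.1 in WT, so that the order of the last pair differs between the libraries. RNA captured at its tail need not give more UMIs from a longer transcript, so these orders hold only for the per-length scale. Over all cells, histone cluster genes took 347 CPM in Mettl3pKO and 519 in WT.

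The summed level of the polyadenylated-type members, most of which comes from Hist1h2bc and Hist1h1c, was lower in Mettl3pKO acinar-like and duct and trunk-like cells, and within 1.5-fold of WT in the hormone cells of the same epithelium. In acinar-like cells, which make digestive enzymes, their summed level was 183 CPM in Mettl3pKO and 542 in WT (0.337, 0.328 to 0.347). In duct and trunk-like cells, which include bipotent progenitors, it was 100.1 in Mettl3pKO and 232 in WT (0.431, 0.397 to 0.467). Alpha-like cells had 720.2 in Mettl3pKO and 787 in WT (0.915, 0.864 to 0.970), and beta-like cells 634 in Mettl3pKO and 556 in WT (1.14, 1.07 to 1.22). Of the 8 compared classes, alpha-like and beta-like cells held the highest sums in both libraries, although in WT the beta-like sum (556) was close to the acinar-like one (542).

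Outside the epithelium the same sum was lowest in mesenchyme-like cells, at 33.9 in Mettl3pKO and 39.1 in WT (0.867, 0.713 to 1.05). The part of free RNA in the levels of any class was not tested. Mesothelium-like cells had 148 in Mettl3pKO and 133 in WT (1.12, 0.925 to 1.35), and immune and mast-like cells 281 in Mettl3pKO and 330.2 in WT (0.850, 0.743 to 0.973). Erythroid-like cells had 172 in Mettl3pKO and 439 in WT (0.392, 0.331 to 0.463), the only non-epithelial class past 1.5-fold.

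**Figure D1:**
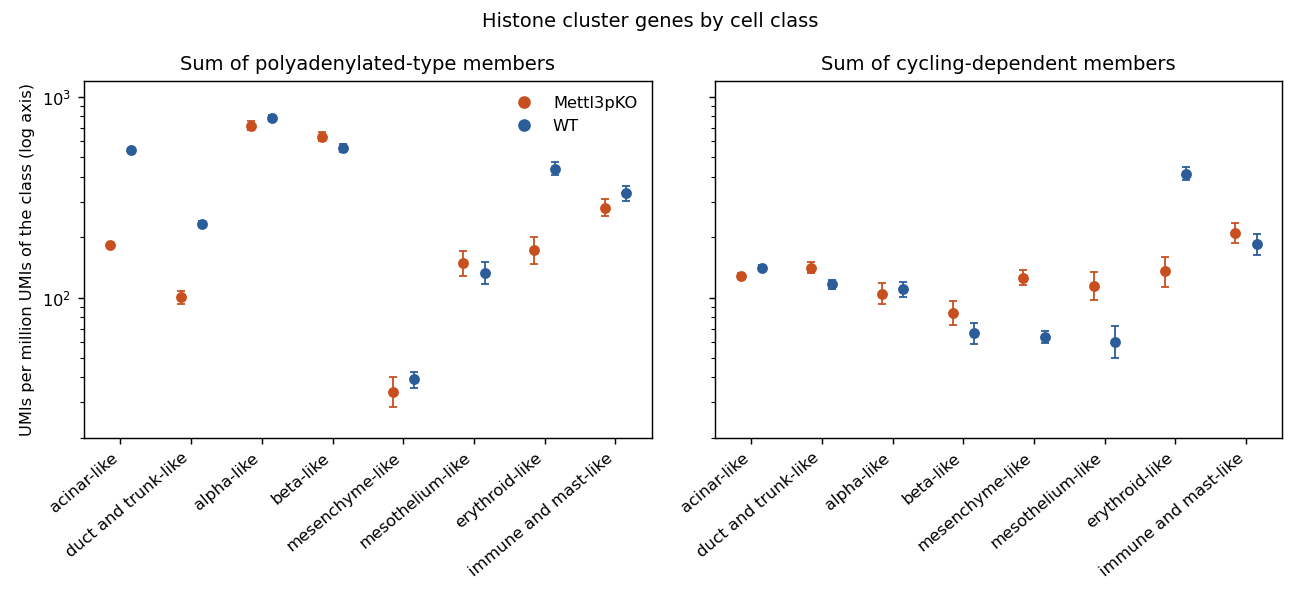
Summed level of the 7 polyadenylated-type members (left) and 51 cycling-dependent members (right) in CPM of the class (log axis), by cell class; each point is 1 library (Mettl3pKO orange, WT blue) and bars are exact Poisson 95% intervals. On the left Mettl3pKO lies below WT in acinar-like, duct and trunk-like and erythroid-like cells and, by less, in alpha-like and immune and mast-like cells. It lies slightly above WT there in beta-like cells. On the right it lies far below WT in erythroid-like and slightly below in acinar-like cells. It lies above WT there in mesenchyme-like and mesothelium-like and, by less, in duct and trunk-like and beta-like cells.

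The cycling-dependent members did not follow that order. Their sum was 129 in Mettl3pKO and 141 in WT (0.912, 0.874 to 0.951) in acinar-like cells and 141 in Mettl3pKO and 116 in WT (1.21, 1.12 to 1.31) in duct and trunk-like cells. Alpha-like cells had 105 in Mettl3pKO and 109.9 in WT (0.953, 0.816 to 1.11) and beta-like cells 83.5 in Mettl3pKO and 66.3 in WT (1.26, 1.05 to 1.52). In these 4 epithelial classes the sum thus stayed within 1.5-fold of WT. It was higher in Mettl3pKO in mesenchyme-like cells, at 126 in Mettl3pKO and 63.6 in WT (1.98, 1.77 to 2.22), and in mesothelium-like cells, at 115 in Mettl3pKO and 60.04 in WT (1.91, 1.497 to 2.45). Immune and mast-like cells had 210.1 in Mettl3pKO and 184 in WT (1.14, 0.965 to 1.35), and erythroid-like cells 135 in Mettl3pKO and 415 in WT (0.325, 0.269 to 0.391). These sums are over cells of all depths. Median UMIs per cell were 13429 in Mettl3pKO and 8939 in WT mesenchyme-like cells. In mesothelium-like cells the medians were 14684.5 in Mettl3pKO and 9195 in WT.

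In acinar-like cells 54 members had 20 or more UMIs and were set against a 1.5-fold limit. Of the polyadenylated type 5 of 6 were lower in Mettl3pKO and 0 higher, and of the cycling-dependent type 13 of 45 were lower and 3 higher. Of the unsure type 2 of 3 were lower. Of all genes with as many UMIs, 20.9% were higher and 8.77% lower. The median log2 ratio was -1.42 for the polyadenylated type and -0.22 for the cycling-dependent type, against 0.16 for all genes.

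Hist1h2bc, an H2B gene, had 130.2 CPM in Mettl3pKO acinar-like cells and 354 in WT (0.368, 0.356 to 0.381). Hist1h1c, which encodes linker histone H1.2, had 46.0 in Mettl3pKO and 168 in WT (0.275, 0.260 to 0.290), and the H2A gene Hist3h2a 1.74 in Mettl3pKO and 10.1 in WT (0.172, 0.130 to 0.224). For all 3 the levels differed by more than counting error. The H2B genes Hist3h2ba and Hist2h2be were lower too, with 2.26 in Mettl3pKO and 5.95 in WT (0.380, 0.290 to 0.494) and with 1.86 in Mettl3pKO and 3.75 in WT (0.497, 0.364 to 0.676). Hist4h4, an H4 gene, had 0.795 in Mettl3pKO and 1.03 in WT (0.772, 0.451 to 1.33), an interval that spans 1. Hist2h2aa1 had 4 UMIs in Mettl3pKO and 1 in WT and was not compared.

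Of the 6 cycling-dependent members with the most UMIs, 4 lay within 1.5-fold of WT in acinar-like cells. The H2A gene Hist1h2ae had 25.4 in Mettl3pKO and 21.6 in WT (1.17, 1.06 to 1.30), and Hist1h1e, which encodes H1.4, 15.48 in Mettl3pKO and 15.1 in WT (1.02, 0.903 to 1.16). The H3 gene Hist1h3c had 8.05 in Mettl3pKO and 6.47 in WT (1.24, 1.03 to 1.504), and the H4 gene Hist1h4d 7.01 in Mettl3pKO and 7.06 in WT (0.993, 0.823 to 1.20). The other two were lower in Mettl3pKO: the H2A gene Hist1h2ac, at 9.54 in Mettl3pKO and 19.2 in WT (0.497, 0.435 to 0.568), and Hist1h1d, which encodes H1.3, at 7.38 in Mettl3pKO and 11.1 in WT (0.665, 0.564 to 0.783). The H3 gene Hist2h3c2, sorted as cycling-dependent, was lower in S-rich than in non-cycling WT epithelial cells (below). Its acinar-like ratio was the lowest among members with 50 or more UMIs, at 0.447 in Mettl3pKO and 2.76 in WT (0.162, 0.0912 to 0.274). At the other end stood the H2B genes Hist1h2bb, at 3.97 in Mettl3pKO and 2.17 in WT (1.83, 1.35 to 2.51), and Hist1h2bj, at 1.84 in Mettl3pKO and 1.10 in WT (1.67, 1.08 to 2.64), with the H3 gene Hist1h3e just under the limit at 4.92 in Mettl3pKO and 3.38 in WT (1.45, 1.13 to 1.88).

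**Figure D2:**
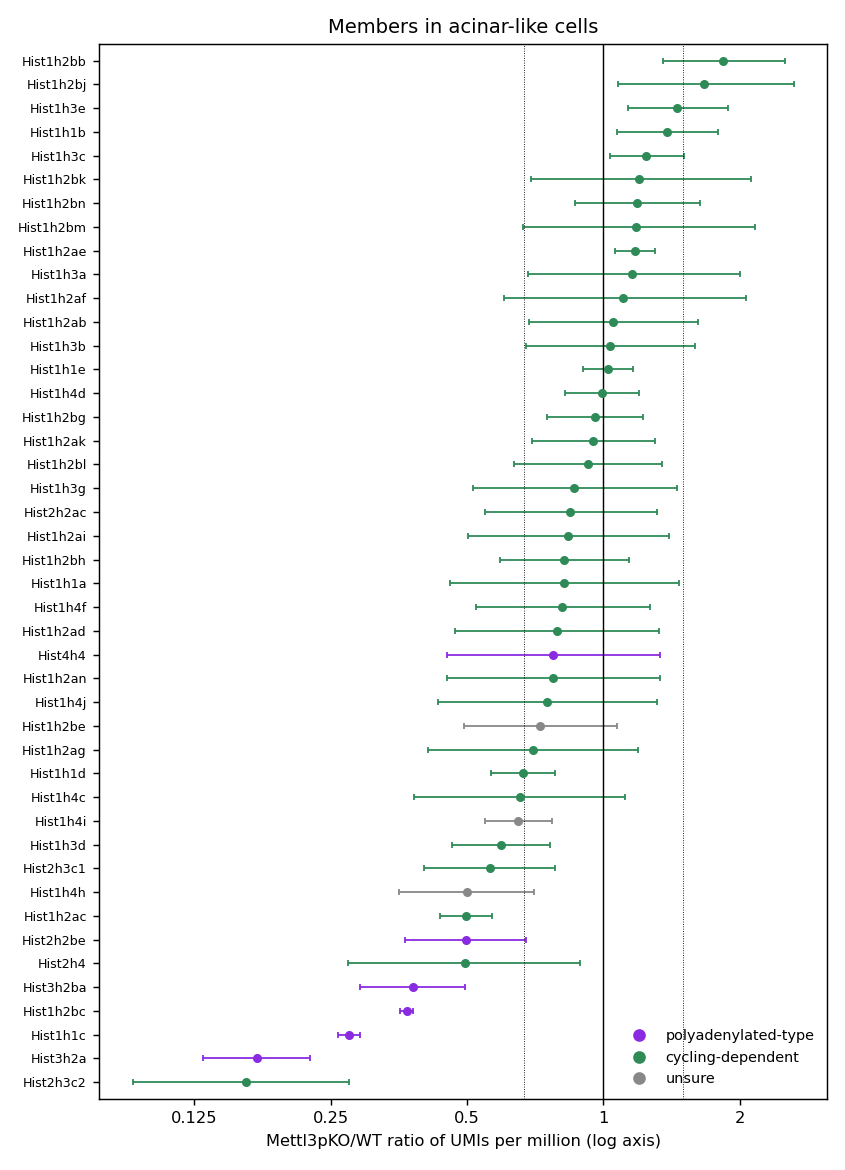
Mettl3pKO/WT ratio of CPM in acinar-like cells (log axis) for each member with 50 or more UMIs there; bars are exact binomial 95% intervals, the solid line marks 1 and the dotted lines 1.5-fold. Polyadenylated-type members other than Hist4h4 lie at or below 0.497, while cycling-dependent members spread from 0.162 to 1.83. The lowest of the latter, Hist2h3c2, was lower in S-rich than in non-cycling WT epithelial cells.

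The acinar-like class was made up of different clusters in the libraries. Clusters 0 and 5, led by Serpina6 and Serpina10, held 725 and 654 of 2115 Mettl3pKO cells and 70 and 65 of 1848 WT cells. The polyadenylated-type sum was lower in Mettl3pKO within each of the 7 clusters compared. Its ratio ran from 0.364 in cluster 3, with 295 and 809.7 CPM in Mettl3pKO and WT, to 0.820 in cluster 0, with 115 and 140.2. The pooled ratio lies below all of these, and clusters 0 and 5 have the lowest sums of the 7 in both libraries; over the clusters with 150 or more cells in each library it was 0.446. Within clusters the ratio of Hist1h1c ran from 0.217 to 0.766, that of Hist1h2bc from 0.348 to 0.844, and that of the cycling-dependent sum from 0.729 to 1.00.

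Cycle states were set from S-phase and mitotic genes that include no histone, after thinning cells to the same number of UMIs. Shallower cells were given no state, which left out 867 of 6034 WT cells and 0 of 3622 Mettl3pKO cells. Every share by state below is of the cells with a state. The lowest total in Mettl3pKO was 10719 UMIs, and WT cells below that total could still get a state. Thinning evens out the UMIs read per cell but not which cells are present. Shares by state are thus not matched for depth between the libraries, and the part of depth in them was not tested. S-rich cells lay above the 75th percentile of S-phase UMIs, and non-cycling cells had no mitotic UMIs and at most the median of S-phase UMIs. Cells called mitotic were not S-rich and had 2 or more UMIs over 9 genes, among them Mki67, Top2a and Cdk1. The name stands for this rule and does not show that the cells were dividing. The rest were intermediate. In the acinar-like class 2115 Mettl3pKO and 1715 WT cells had a state. Of these, 22.2% of Mettl3pKO and 15.8% of WT cells were S-rich and 9.93% of Mettl3pKO and 23.3% of WT cells non-cycling. The mitotic share was the largest, at 54.6% of Mettl3pKO and 44.2% of WT cells. The polyadenylated-type sum was lower in Mettl3pKO in every state: 185 in Mettl3pKO and 625 in WT (0.295, 0.278 to 0.313) among S-rich, 207 in Mettl3pKO and 723 in WT (0.287, 0.277 to 0.297) among mitotic, 112 in Mettl3pKO and 289.7 in WT (0.386, 0.348 to 0.428) among intermediate and 120.3 in Mettl3pKO and 249.7 in WT (0.482, 0.431 to 0.538) among non-cycling cells. Within S-rich cells Hist1h1c had 36.6 in Mettl3pKO and 213 in WT (0.171, 0.151 to 0.194), while Hist1h2ae had 62.5 in Mettl3pKO and 61.9 in WT (1.01, 0.876 to 1.17). The linker and the H2A gene thus stood apart within S-rich cells, which were matched for state but not for cluster.

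**Figure D3:**
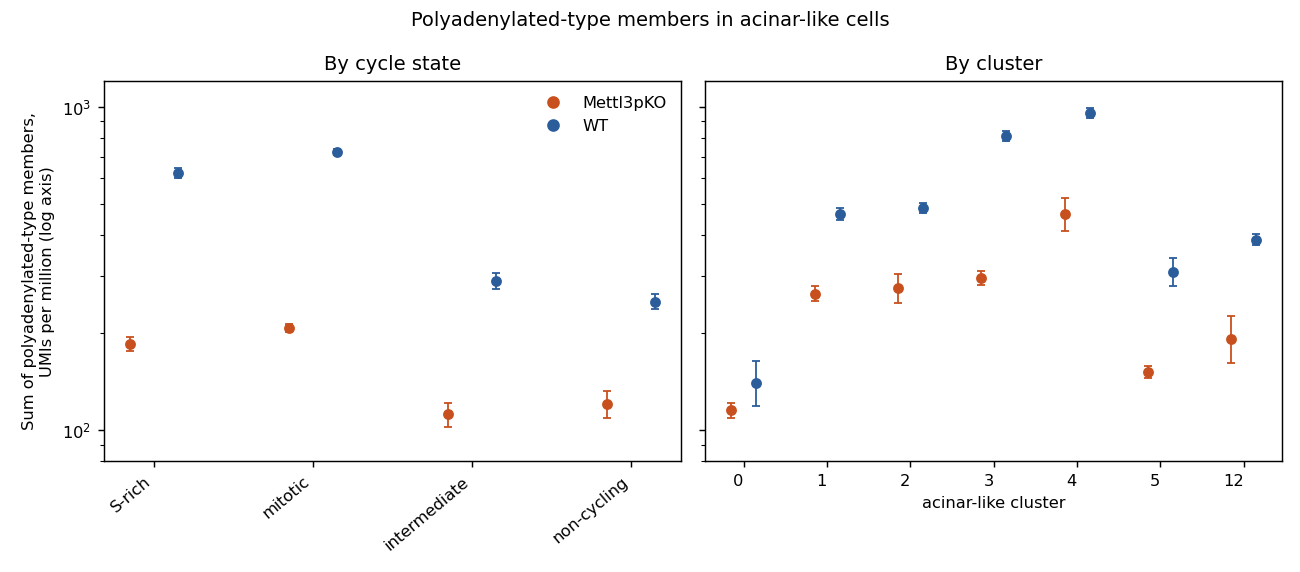
Summed level of the polyadenylated-type members in acinar-like cells in CPM (log axis), by cycle state (left) and by cluster (right); each point is 1 library (Mettl3pKO orange, WT blue) and bars are exact Poisson 95% intervals. Mettl3pKO lies below WT in each of the 4 states and 7 clusters, with the narrowest gap in cluster 0.

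In duct and trunk-like cells 5 of 6 polyadenylated-type members were at least 1.5-fold lower in Mettl3pKO and 0 higher, whereas 9 of 27 cycling-dependent members were higher and 4 lower. Of all genes there, 11.8% were higher and 9.28% lower. Hist1h2bc had 61.2 in Mettl3pKO and 130.02 in WT (0.471, 0.424 to 0.523), Hist1h1c 21.7 in Mettl3pKO and 67.5 in WT (0.321, 0.269 to 0.381) and Hist3h2a 2.34 in Mettl3pKO and 12.2 in WT (0.193, 0.110 to 0.318). These are the same 3 members with the lowest ratios of the type as in acinar-like cells. Hist1h1b, which encodes H1.5, had 11.03 in Mettl3pKO and 4.61 in WT (2.39, 1.70 to 3.38), Hist1h1e 19.9 in Mettl3pKO and 11.2 in WT (1.77, 1.40 to 2.23) and Hist1h4d 8.55 in Mettl3pKO and 4.61 in WT (1.85, 1.29 to 2.67). Of 433 Mettl3pKO and 1056 WT cells with a state, 44.6% in Mettl3pKO and 34.0% in WT were S-rich; 140 WT cells had none. The direction of the cycling-dependent sum turned among cells with 13000 UMIs or more, to a ratio of 0.908, and within cluster 15, to 0.718. The polyadenylated-type ratio was 0.428 in cluster 15, 0.377 in cluster 7 and 0.933 in cluster 22.

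In alpha-like cells 2 of 16 members were at least 1.5-fold higher in Mettl3pKO and 1 lower, against 9.57% higher and 4.89% lower among all genes. In beta-like cells 7 of 15 were higher and 1 lower, against 8.93% higher and 6.05% lower; none of these was of the polyadenylated type. Cycling cells differed as well: of beta-like cells with a state 12.2% of Mettl3pKO and 4.92% of WT were S-rich and 12.2% of Mettl3pKO and 3.69% of WT mitotic, and of alpha-like cells 12.2% of Mettl3pKO and 3.18% of WT were S-rich. Their part in the counts was not tested. Hist3h2ba was at its highest in the hormone cells, with 107 in Mettl3pKO and 123 in WT (0.864, 0.742 to 1.00) in beta-like and 78.7 in Mettl3pKO and 82.6 in WT (0.953, 0.796 to 1.14) in alpha-like cells. Hist1h1c had 206 in Mettl3pKO and 157 in WT (1.31, 1.16 to 1.47) in beta-like and 236 in Mettl3pKO and 277 in WT (0.849, 0.768 to 0.939) in alpha-like cells. Hist1h2bc had 286 in Mettl3pKO and 237 in WT (1.21, 1.09 to 1.33) in beta-like and 369 in Mettl3pKO and 382 in WT (0.966, 0.890 to 1.05) in alpha-like cells. Both thus lay within 1.5-fold of WT in hormone cells. Hist1h1d had 35 UMIs in Mettl3pKO and 16 in WT beta-like cells (3.49, 1.88 to 6.76), and the H4 gene Hist1h4i 19.1 CPM in Mettl3pKO and 9.22 in WT (2.07, 1.32 to 3.27). The H3 gene Hist2h3c1 had a ratio below 1 in both classes, short of 1.5-fold. It was at 17.1 in Mettl3pKO and 23.4 in WT (0.730, 0.497 to 1.06) in beta-like cells, an interval that spans 1. In alpha-like cells it was at 19.6 in Mettl3pKO and 28.3 in WT (0.692, 0.485 to 0.973).

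**Figure D4:**
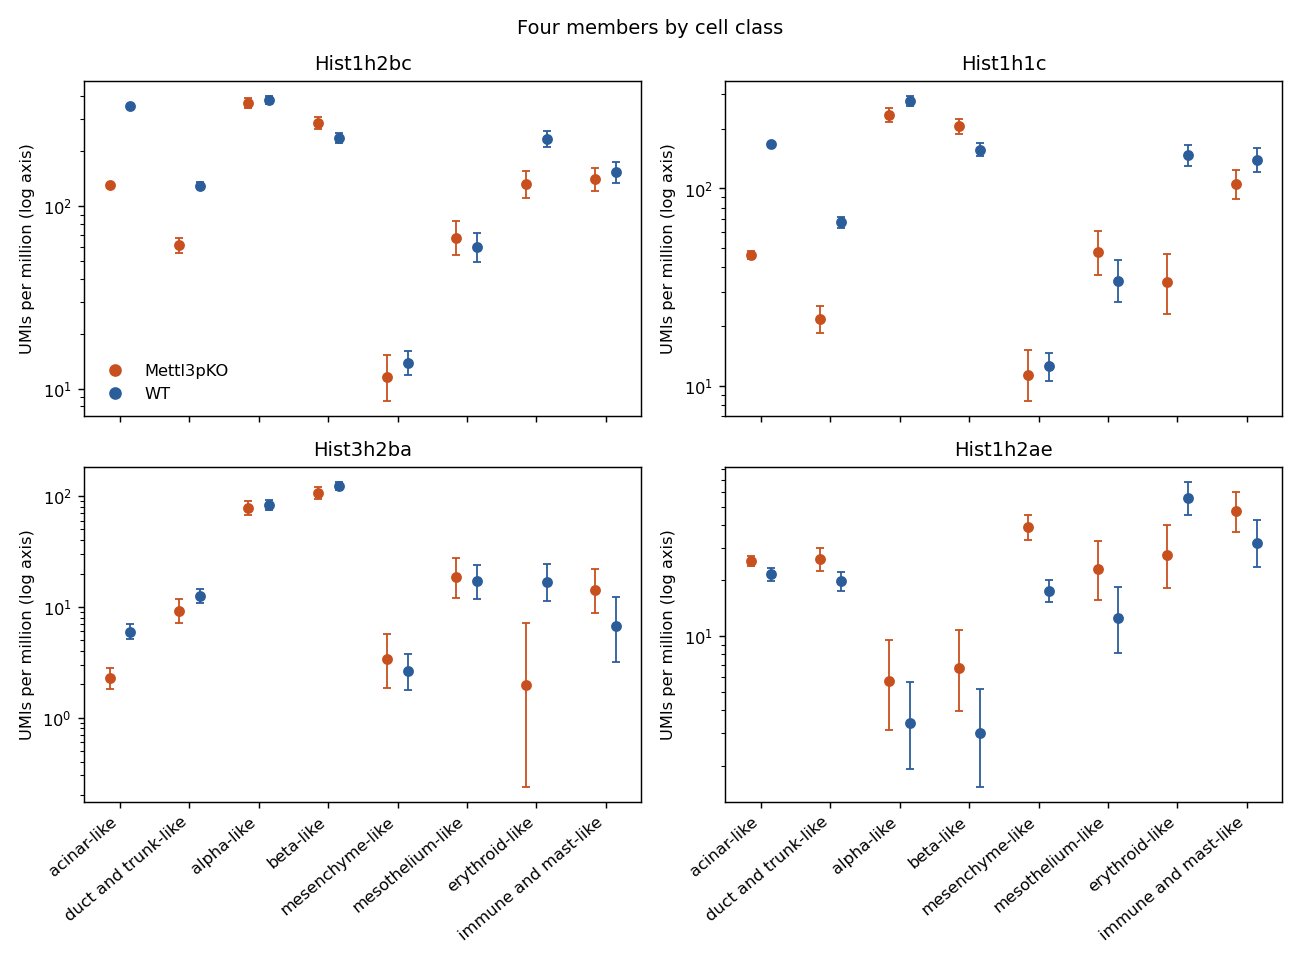
Level of 4 members in CPM of the class (log axes, which differ between panels) by cell class; each point is 1 library (Mettl3pKO orange, WT blue) and bars are exact Poisson 95% intervals. Hist1h2bc and Hist1h1c are lower in Mettl3pKO acinar-like and duct and trunk-like cells, Hist3h2ba is highest in alpha-like and beta-like cells of both libraries, and Hist1h2ae is lowest there.

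In mesenchyme-like cells 6 of 9 cycling-dependent members were at least 1.5-fold higher in Mettl3pKO and 1 lower, against 7.93% higher and 6.24% lower among all genes. Hist1h2ae had 38.7 in Mettl3pKO and 17.6 in WT (2.20, 1.78 to 2.72), Hist1h1b 16.2 in Mettl3pKO and 6.17 in WT (2.63, 1.86 to 3.71) and Hist1h1e 21.8 in Mettl3pKO and 9.22 in WT (2.36, 1.77 to 3.15). Of 293 Mettl3pKO and 908 WT cells with a state, 57.3% in Mettl3pKO and 34.0% in WT were S-rich. No state was given to 331 WT cells, and the cells behind these shares were not matched for depth. Among S-rich cells alone the cycling-dependent sum was 181 in Mettl3pKO and 149 in WT (1.21, 1.06 to 1.38), and in cluster 18 its ratio was 1.05. The polyadenylated-type members Hist1h2bc, Hist1h1c and Hist3h2a had ratios of 0.838, 0.909 and 0.707.

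In mesothelium-like cells 3 of 9 members were higher and 0 lower, against 14.2% higher and 13.4% lower among all genes. Of the cells with a state 36.2% of Mettl3pKO and 20.8% of WT were S-rich. Hist1h2ae had 23.0 in Mettl3pKO and 12.5 in WT (1.84, 1.05 to 3.24) and Hist1h1c 47.4 in Mettl3pKO and 34.0 in WT (1.39, 0.974 to 1.99). In immune and mast-like cells 4 of 14 were higher and 1 lower, against 18.4% higher and 10.5% lower. There Hist1h1e had 24.3 in Mettl3pKO and 16.01 in WT (1.52, 0.874 to 2.67) and Hist1h1c 105 in Mettl3pKO and 139 in WT (0.753, 0.606 to 0.935).

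In erythroid-like cells 15 of 17 members were at least 1.5-fold lower in Mettl3pKO and 0 higher, against 27.6% higher and 25.6% lower among all genes. Hist1h4i had 10.8 in Mettl3pKO and 70.9 in WT (0.153, 0.0743 to 0.283), Hist1h1c 33.5 in Mettl3pKO and 148 in WT (0.227, 0.154 to 0.325) and Hist1h2bc 132 in Mettl3pKO and 234 in WT (0.565, 0.461 to 0.688). The class held different cells in the libraries: cluster 11 held 51 Mettl3pKO and 56 WT cells, and cluster 25 held 2 and 69. Of the cells with a state 24.5% of Mettl3pKO and 47.1% of WT were S-rich. Within cluster 11 the cycling-dependent sum was 120.1 in Mettl3pKO and 85.8 in WT (1.40, 1.03 to 1.92), the opposite direction to the whole class, and the polyadenylated-type sum 175 in Mettl3pKO and 276 in WT (0.635, 0.516 to 0.780). Hist1h1c was lower there too, at 33.6 in Mettl3pKO and 108 in WT (0.310, 0.201 to 0.470), while Hist1h2bc had 134 in Mettl3pKO and 139 in WT (0.969, 0.744 to 1.26). Cluster 11 had a marker score of 0.701 for erythroid cells and, second, 0.345 for acinar cells. The part of acinar RNA in its levels was not tested.

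Within each library, S-rich epithelial cells were set against non-cycling ones. The cycling-dependent sum was 236 in S-rich and 49.9 in non-cycling Mettl3pKO cells (4.72, 4.22 to 5.30), and 231 in S-rich and 59.0 in non-cycling WT cells (3.91, 3.64 to 4.22). In Mettl3pKO 27 of 29 cycling-dependent members were at least 1.5-fold higher in S-rich cells and 1 lower, against 23.1% and 20.9% of all genes. In WT 31 of 34 were higher and 2 lower, against 21.4% and 27.1%.

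Hist1h2ae had 55.0 in S-rich and 3.22 in non-cycling Mettl3pKO cells (17.1, 11.2 to 27.4), and 45.7 in S-rich and 2.65 in non-cycling WT cells (17.2, 12.7 to 23.9). Hist1h3c had 15.6 in S-rich and 0.404 in non-cycling WT cells (38.5, 18.3 to 97.4); in Mettl3pKO it had 201 UMIs in S-rich and 2 in non-cycling cells. Hist1h1b had 189 UMIs in S-rich and 0 in non-cycling Mettl3pKO cells, at least 33.6-fold higher against a floor of 3 UMIs, and 9.02 CPM in S-rich and 0.462 in non-cycling WT cells (19.5, 9.51 to 46.6). All 3 genes were low in non-cycling cells of both libraries. Hist1h1d varied less, with 10.3 in S-rich and 7.17 in non-cycling Mettl3pKO cells (1.44, 1.03 to 2.04). The H3 gene Hist2h3c1 was lower in S-rich cells, with 2.26 in S-rich and 10.1 in non-cycling Mettl3pKO cells (0.224, 0.140 to 0.351), and 0.992 in S-rich and 15.8 in non-cycling WT cells (0.0629, 0.0298 to 0.118). Hist2h3c2 was lower in S-rich cells too, with 0.892 in S-rich and 4.96 in non-cycling WT cells (0.180, 0.0795 to 0.357); in Mettl3pKO it had 2 UMIs in S-rich and 15 in non-cycling cells, under the 20 UMIs asked for.

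The polyadenylated-type sum was 163 in S-rich and 401 in non-cycling Mettl3pKO epithelial cells (0.407, 0.384 to 0.431), and 374 in S-rich and 442 in non-cycling WT epithelial cells (0.847, 0.814 to 0.881). In WT the ratio depended on the cells and genes taken: it was 1.07 in cells with Xist, the opposite direction, 0.430 in cells with Y-linked UMIs and 0.308 without Hist1h2bc and Hist1h1c. Without both genes the Mettl3pKO ratio was 0.212. Non-cycling epithelial cells include the hormone cells, which are high in these members. Within acinar-like cells the direction turned, with 185 in S-rich and 120.3 in non-cycling Mettl3pKO cells (1.53, 1.38 to 1.71), and 625 in S-rich and 249.7 in non-cycling WT cells (2.50, 2.35 to 2.67). There 3 of 5 polyadenylated-type members were at least 1.5-fold higher in S-rich Mettl3pKO cells and 1 lower, against 24.2% and 7.29% of all genes, and 3 of 5 higher and 0 lower in WT, against 31.1% and 9.18%. Hist1h2bc had 138 in S-rich and 72.1 in non-cycling Mettl3pKO cells (1.92, 1.68 to 2.20), and 392 in S-rich and 148 in non-cycling WT cells (2.64, 2.43 to 2.87). Hist1h1c had 36.6 in S-rich and 43.4 in non-cycling Mettl3pKO cells (0.844, 0.694 to 1.03), and 213 in S-rich and 87.2 in non-cycling WT cells (2.45, 2.19 to 2.74). Hist1h1c was thus higher in S-rich acinar-like cells in WT, while in Mettl3pKO the interval spans 1; the difference between the libraries was not tested.

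By annotated end, medians of the log2 ratio of S-rich over non-cycling epithelial cells were taken over the members with 20 or more UMIs in both libraries. The 10 such members of 20 that end by the stem-loop had 3.83 in Mettl3pKO and 3.23 in WT. The 9 of 11 that run past the stem-loop with no signal, such as Hist1h4d, had 1.84 in Mettl3pKO and 2.00 in WT. The 8 of 15 that end at a polyadenylation signal had -2.00 in Mettl3pKO and -0.78 in WT. In Mettl3pKO 1 of these 8 was at least 1.5-fold higher in S-rich cells and 5 lower, against 23.1% and 20.9% of all genes. In WT 13 members of that last group were measured, with a median of 0.78. Of them 7 were at least 1.5-fold higher in S-rich cells and 4 lower, against 21.4% and 27.1% of all genes. The share lower was near that of all genes. The group was thus mixed: Hist1h2ae lay far above 0 and Hist3h2ba below 0 in both libraries. The contrast pools epithelial classes, and its non-cycling cells include the hormone cells, which are high in polyadenylated-type members. The part of cell class in these medians was not tested. The end is that of the annotation and was not read from the captured molecules.

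**Figure D5:**
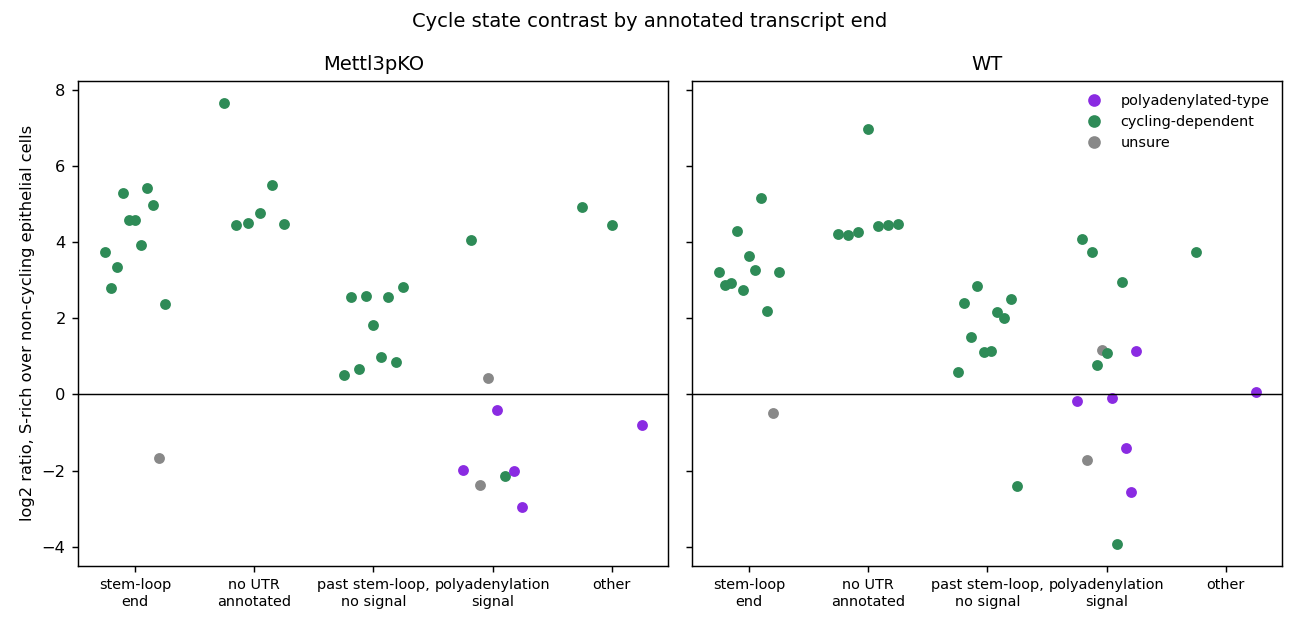
Log2 ratio of the level in S-rich over non-cycling epithelial cells, with 0.5 UMIs added, for each member with 20 or more UMIs in both states together, by annotated transcript end (Mettl3pKO left, WT right). Members that end by the stem-loop lie above 2 apart from 1 of unsure type, and those with a polyadenylation signal spread on both sides of 0.

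Genes that act on histone messages and proteins were counted as well. In acinar-like cells 4 of 16 message processing genes were at least 1.5-fold higher in Mettl3pKO and 0 lower, a share near the 20.9% of all genes. Lsm10 and Lsm11, subunits of the U7 particle that cleaves histone messages, had 56.6 in Mettl3pKO and 21.0 in WT (2.69, 2.45 to 2.96) and 22.8 in Mettl3pKO and 9.96 in WT (2.29, 2.00 to 2.63). Slbp had 33.2 in Mettl3pKO and 27.8 in WT (1.19, 1.09 to 1.31). Among 11 variant histone genes 1 was higher and 1 lower, against 20.9% and 8.77% of all genes. The higher was H2afy2 at 7.38 in Mettl3pKO and 4.26 in WT (1.73, 1.39 to 2.16). The lower was H2afx at 39.3 in Mettl3pKO and 64.9 in WT (0.607, 0.566 to 0.650). Among 14 histone chaperones 1 was higher and 0 lower, against the same shares of all genes. It was Asf1b, at 19.1 in Mettl3pKO and 12.2 in WT (1.56, 1.37 to 1.78).

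Counts of single members carry a further limit. Histone genes share near-identical coding sequence, and whether counting used strand is not stated in the labels or headers. Exons of 22 members overlap another annotated gene, 7 of them on the same strand; among these Hist1h1e and Hist1h2be share 450 bases, Hist3h2a and Trim17 708, and Hist2h3c1 and Gm20634 1825.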

How the data were processed

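The deposited files hold UMI counts per gene and cell, made by the authors with the BD Rhapsody WTA Analysis Pipeline 1.8 per the file headers; mm10 and Seurat are named per the submitters' processing notes. Both tables end in an incomplete cell, which was dropped, and the lowest totals left (10719 UMIs in Mettl3pKO, 3803 in WT) show that shallow cells may be missing. Cells with 200 or more genes and at most 25% mitochondrial UMIs were kept. Scrublet (scanpy 1.11.5) marked 1 of 3623 Mettl3pKO cells, which shows that it failed on that library and that its doublets remain; the 338 cells marked among 6372 in WT were taken out. Clustering used 10000 UMIs per cell, 2000 variable genes without histones, 30 components, 15 neighbours and Leiden resolution 1.0. The minimum marker score of 0.3, the joining of immune with mast cells and the doublet limit were set after values were seen. S-rich cells had over 23 thinned UMIs of 39 S-phase genes (75th percentile). Mitotic cells had 2 or more of 9 mitotic genes and were not S-rich. Non-cycling cells had none of these and at most 11 S-phase UMIs. In WT 867 cells were too shallow to be thinned and got no state.

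UMIs were summed per class and library, with exact Poisson and conditional binomial intervals, which cover counting error only. No test was possible between single libraries. The members and gene lists were chosen with earlier results of these data known. Named were every polyadenylated-type member, the 6 cycling-dependent members with most UMIs, and per class the 3 highest and 3 lowest ratios among members with 50 or more UMIs, ranked by the interval bound nearest 1; Hist1h1b, Hist2h3c1 and Hist2h3c2 in the cycle contrast and genes of other lists were named after their values were seen. Scripts ran on Python 3.11.15 with numpy 2.4.6, scipy 1.17.1, pandas 2.3.3 and matplotlib 3.10.9. Only the calculation of ratios and intervals was run on simulated data. Those were Poisson counts, the model the intervals assume, so the run checks the code and not the model. Alternatives covered filters, doublets, depth, clustering, scaling, state limits and the fold and UMI limits.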

Additional observations from a re-analysis of the deposited data

Results flagged for a closer look

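The ratio of Mettl3pKO to WT went in opposite directions in classes under the same contrast; neither difference was tested. The polyadenylated-type sum had a ratio of 0.337 in acinar-like cells and 1.14 in beta-like cells. The cycling-dependent sum had a ratio of 0.325 in erythroid-like cells and 1.98 in mesenchyme-like cells, and within erythroid-like cluster 11 it was 1.40.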

How the results depend on the processing

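No paired analysis was possible because each genotype has 1 library, and no library could be left out. Of the alternative values of the summed ratios and member counts, 116 kept their direction and size, 77 moved by more than counting error or 1.5 times, and 3 reversed; no cause was tested. The polyadenylated-type acinar-like ratio (0.337) became 0.415 with 500 or more genes and at most 10% mitochondrial UMIs, 0.321 with 13000 UMIs or more and also with abundant gene families left out of the total, 0.301 divided by the median of all genes, 0.373 in cells with Y-linked UMIs, 0.316 in cells with Xist and, added after seeing the data, 0.324 without Hist1h2bc and Hist1h1c and 0.446 in clusters of 150 or more cells. In the same order where moved, the cycling-dependent acinar-like ratio (0.912) became 0.829, 0.817, 0.868, 0.813, 0.967, 0.857 and, in the large clusters, 0.828. The polyadenylated-type duct and trunk-like ratio (0.431) became 0.396 with the strict filter, 0.338 with doublets kept, 0.379 without the top 5% of doublet scores, 0.485 with 13000 UMIs, 0.330 at Leiden resolution 2.0, 0.354 with classes from own markers and 0.495 without both genes. The cycling-dependent one (1.21) reversed to 0.908 with 13000 UMIs and 0.718 in the large cluster. S-rich over non-cycling, the cycling-dependent ratio (4.72 in Mettl3pKO, 3.91 in WT) became 3.99 in Mettl3pKO with the strict filter, 3.46 and 3.26 with unsure members added, 3.93 and 3.61 at the 60th percentile, and in WT 2.49 in cells with Y-linked UMIs and 4.55 with Xist. The polyadenylated-type one became, in Mettl3pKO (0.407), 0.367 with the strict filter, 0.432 with 13000 UMIs, 0.379 and 0.381 by total and median scaling, 0.383 with Xist and 0.212 without both genes. In WT (0.847) it became 0.924 with 13000 UMIs, 0.882 by the median, 0.430 with Y-linked UMIs, 0.597 and 0.905 at the 90th and 60th percentiles and 0.308 without both genes, and reversed to 1.07 with Xist. Of 77 named pairs of member and class, 49 kept their direction in every one of 14 alternatives and 28 did not; of these, Hist1h2ae in erythroid-like cells, which is past 1.5-fold, reversed to a log2 ratio of 0.058 with classes from own markers. Counts of members higher in Mettl3pKO became, in acinar-like cells (3), 6 at the loosest fold limit, 0 at 2-fold and 5 with 10 UMIs; alpha-like (2), 0 at 2-fold and 0 with 50 UMIs; beta-like (7), 3 and 2; duct and trunk-like (9), 4 and 3. They became, in immune and mast-like cells (4), 9 at the loosest fold limit, 2 at 2-fold and 1 with 50 UMIs; mesenchyme-like (6), 13 with 10 UMIs; mesothelium-like (3), 0 at 2-fold, 6 with 10 and 1 with 50 UMIs. Counts lower became, in acinar-like cells (20), 12 at 2-fold; duct and trunk-like (11), 7 at 2-fold, 17 with 10 and 6 with 50 UMIs; erythroid-like (15), 25 with 10 and 7 with 50 UMIs. The counts of 0 or 1 in the other classes became 0 to 3, and in immune and mast-like cells 7 with 10 UMIs.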
